A study of Mus musculus with 5 samples.

Results

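The Bcl2 family decides whether a cell keeps its mitochondria intact or opens them and dies. Survival proteins such as Bcl2, Bcl2l1 (Bcl-xL), Mcl1 and the Bcl2a1 (A1) proteins hold the pore-forming effectors Bax and Bak1 in check, and the BH3-only proteins, here Bcl2l11 (Bim), Bid, Bbc3 (Puma) and Pmaip1 (Noxa), bind the survival proteins or the effectors and tip the balance towards death. Macrophages depend on growth factor signals such as M-CSF to survive, Mcl1 and the A1 proteins are survival factors of myeloid cells, and A1 and Bcl-xL are known targets of NF-kB.

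The 10 genes described here were chosen by name, and all 10 were among the 20583 gene symbols of the deposited count table and among the 13341 genes that passed the filter on low counts. Each gene is given by the transcript with the highest mean count. They were measured in macrophages grown from bone marrow of NICcA mice (n = 2 libraries, numbered 2 and 3) and of wild type mice (n = 3 libraries, numbered 1 to 3). All mice were on a C57BL/6 background and 7 to 8 weeks old, and all cultures received M-CSF at 25 ng/ml for 7 days. NICcA is not written out in the labels. It has been the name of a mouse allele from which Cre recombinase switches on the intracellular, always active domain of a Notch receptor. Neither the Cre driver nor a separate animal for each library is given, so the spread behind the p-values may be technical only. Values within a group are given in the order of these replicate numbers.

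Total counts were 64870248 and 68110891 in the NICcA libraries and ranged from 57442309 to 76562905 in wild type. Levels below are CPM (counts per 1e6 counts of the scaled library), except where RPKM, the authors' value per kilobase of transcript and depth, is named. Hes1, a repressor switched on by Notch signalling, was at 2.77 and 1.73 CPM in NICcA and at 0.0174, 0.0682 and 0.0911 CPM in wild type. Notch1, a Notch receptor gene, was at 84.2 and 87.6 CPM in NICcA and at 78.5, 68.1 and 67.4 CPM in wild type. Of the 8 macrophage markers, 0 were at 0 in all libraries, and their summed level was 12166 and 12983 CPM in NICcA and ranged from 14577 to 20769 CPM in wild type. Most of that sum was Lyz2, at 9302 and 10411 CPM in NICcA and at 11521, 14308 and 17517 CPM in wild type. The summed level thus mainly follows this 1 gene. Of the 8 markers 4 were lower and 1 was higher in both NICcA libraries than in all of wild type. The higher 1 was Fcgr1, at 140 and 77.5 CPM in NICcA and at 63.6, 48.3 and 61.5 CPM in wild type. It was the 1 macrophage marker that DESeq2 called (edgeR adjusted p = 0.29, DESeq2 adjusted p = 0.041), where DESeq2 called 2.05% of all genes as higher. Of all genes tested 18.5% were lower and 18.3% higher. NICcA replicate 2 stood apart: interferon-stimulated genes lay a median of 4.32 on the log2 scale from the wild type mean there and of -0.026 in NICcA replicate 3. In whole cultures, fewer cells of a type and less RNA per cell cannot be told apart.

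The A1 proteins come from several gene copies that are nearly identical in sequence, which bears on every value of Bcl2a1b below. Over the 516 coding bases, Bcl2a1b differs from Bcl2a1a at 11 bases and from Bcl2a1d at 6. The start of the coding sequence, coding bases 1 to 90, is shown to let the 3 copies be compared. The sequences are from the GENCODE M21 transcripts (GRCm38), 5′ to 3′ with the 6 differing bases in capitals. The stretch was picked because no other 90-base coding stretch within 1 exon holds more differing bases, so it is not typical of the coding sequence. It lies in the first coding exon, at chr9:89199360-89199449 on the plus strand for Bcl2a1b, chr9:88957051-88957140 on the plus strand for Bcl2a1a and chr9:88731630-88731719 on the minus strand for Bcl2a1d.
Bcl2a1b: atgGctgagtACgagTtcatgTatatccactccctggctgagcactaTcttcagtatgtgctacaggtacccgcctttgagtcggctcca
Bcl2a1a: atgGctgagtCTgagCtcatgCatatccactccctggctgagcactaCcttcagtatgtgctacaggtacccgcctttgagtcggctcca
Bcl2a1d: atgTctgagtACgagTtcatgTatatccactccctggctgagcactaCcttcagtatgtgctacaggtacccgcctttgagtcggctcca
After the last capital, the remaining bases of this stretch are the same in all 3 copies. Of all 50-base stretches of the Bcl2a1b transcript, 79.2% also occur in a transcript of another gene (the other A1 copies and Gm29094), and of all 100-base stretches 56.8% do. The share at 50 bases was 69.0% for Bcl2a1a and 79.5% for Bcl2a1d. How the authors assigned reads that match several copies is not given in the sources used here, so the split of counts among the copies is uncertain.

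The other members are better separated in sequence. At 50 bases the share was 0% for Bcl2l1, Mcl1, Bid, Bbc3 and Pmaip1, 0.221% for Bcl2l11 and 6.75% for Bcl2, there mostly with D630008O14Rik. It was 17.6% for Bax and 18.2% for Bak1, each through the transcripts of 1 other annotated gene, Gm45808 and Ggnbp1. Values of Bax and Bak1 may include reads of those genes.

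Levels between genes were compared per length, as RPKM. Mcl1, a short-lived protein that restrains Bak1 and binds BH3-only proteins, was the most abundant member, at 216 ± 19.3 RPKM in NICcA and 243 ± 12.8 RPKM in wild type (mean ± SD, n = 2 and n = 3 here and throughout). Bcl2a1b followed at 159 ± 82.9 RPKM in NICcA and 96.7 ± 6.86 RPKM in wild type. Bax came next at 47.6 ± 2.07 RPKM in NICcA and 41.7 ± 6.82 RPKM in wild type. Bak1 and Bcl2l1 averaged 19.4 and 19.2 RPKM over all 5 libraries and their ranges overlapped. Bcl2l11, Bid, Pmaip1 and Bbc3 averaged between 7.32 and 12.01 RPKM, and each overlapped its neighbour in this order. Bcl2 was the least abundant member, at 1.86 ± 0.357 RPKM in NICcA and 0.760 ± 0.0752 RPKM in wild type, below the lowest value of any other member.

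**Figure D1:**
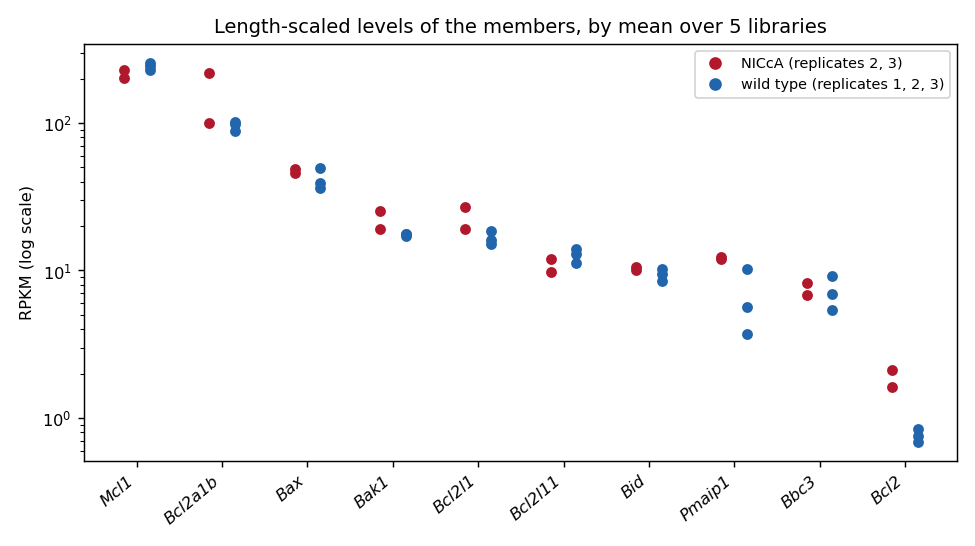
RPKM of the 10 members on a log axis, ordered by their mean over 5 libraries, with 1 point per library (NICcA left and red, wild type right and blue). Mcl1 was highest except in NICcA replicate 2, where Bcl2a1b was at 217 RPKM and Mcl1 at 202 RPKM, and Bcl2 was lowest in every library.

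The 4 survival members held 79.8% and 76.5% of the summed RPKM of the 10 members in NICcA, and 78.3%, 78.5% and 80.2% in wild type. The effectors Bax and Bak1 held 13.2% and 14.2% in NICcA and 12.3% to 13.9% in wild type. The 4 BH3-only members held 6.98% and 9.31% in NICcA and 7.52% to 8.75% in wild type. For each of the 3 roles the shares of the groups overlapped. Within the survival group Mcl1 alone held 35.9% and 50.04% of the summed RPKM in NICcA and 52.2% to 55.8% in wild type, and Bcl2a1b alone held 38.7% and 21.9% in NICcA and 20.5% to 22.5% in wild type.

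The comparison of NICcA with wild type macrophages asks how the genotype differs in the transcripts of these genes. Of the 10 members, 0 passed edgeR's quasi-likelihood test at a Benjamini-Hochberg adjusted p below 0.05 over all transcripts tested, where 0.03% of all genes tested passed, and 2 had an unadjusted p below 0.05, where 14.5% of all genes did. DESeq2 called 1 member, Bcl2, as higher and 0 as lower, where it called 3.95% of all genes (2.05% as higher and 1.9% as lower). In CPM, the NICcA and wild type values did not overlap for 4 members, against 36.8% of all genes, a share near the background. Of these, 2 were higher in NICcA and 2 lower, where 18.3% and 18.5% of all genes were. The members' median log2 fold change was 0.16, beside 0.0028 for all genes tested, with 7 members above 0 and 3 below.

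**Figure D2:**
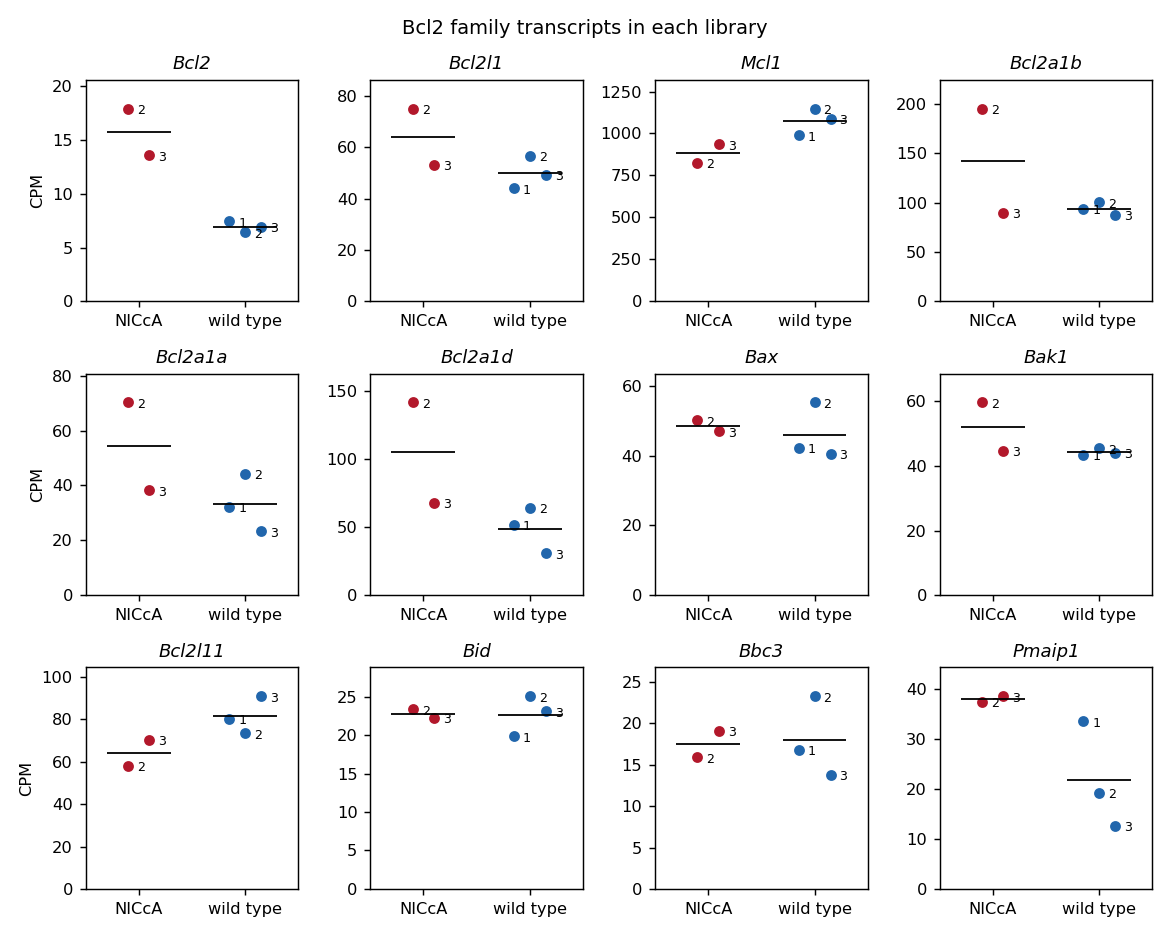
CPM of the 10 members and of the copies Bcl2a1a and Bcl2a1d in each library, on linear axes from 0, with replicate numbers beside the points and the group mean as a line (NICcA left, wild type right). Bcl2, Bcl2a1d and Pmaip1 had both NICcA points above all wild type points, and Mcl1 and Bcl2l11 had both below.

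Among the survival genes, Bcl2 had the smallest p of the members. It was at 17.9 and 13.6 CPM in NICcA and at 7.46, 6.40 and 6.95 CPM in wild type. Both NICcA libraries were above all wild type libraries, and the wild type libraries lay close together. The log2 fold change was 1.18 (SE 0.17, 95% interval 0.78 to 1.59), a 2.27-fold difference. The unadjusted p was 0.00035, the 16th smallest among 13341 genes, and the value did not pass after adjustment (edgeR adjusted p = 0.27), whereas it passed with DESeq2 (log2 fold change 1.18, adjusted p = 4.0e-06). The shorter Bcl2 transcript, which shares exon sequence with it, had counts of 590 and 386 in NICcA and of 153, 259 and 202 in wild type (log2 fold change 1.20, SE 0.26, edgeR adjusted p = 0.27).

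The Bcl2 value was above 0 with each library left out. It was 0.97 without NICcA replicate 2 and 1.37 without NICcA replicate 3 (edgeR adjusted p = 0.90 and 0.094). The 3 genes whose centred log2 CPM profile over the 5 libraries came closest to that of Bcl2, among 9385 genes at a mean of at least 5 CPM, were Sh3pxd2a, Fnbp1l and Rasgrp1. Their root mean square differences from it were 0.0728, 0.135 and 0.142 on the log2 scale.

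Transcripts of other cell types rich in Bcl2 were looked at beside this result. All 6 B cell markers summed to 0.628 and 0.665 CPM in NICcA and to between 0.416 and 1.08 CPM in wild type. The T and NK cell list summed to 3.93 and 3.60 CPM in NICcA and to between 2.15 and 2.504 CPM in wild type. Of its 5 tested genes all 5 had a log2 fold change above 0, and 3 had both NICcA values above all wild type values (Cd3g, Cd8a and Klrb1c), where 18.3% of all genes did. Klrb1c, an NK cell receptor, was at 1.41 and 1.95 CPM in NICcA and at 1.08, 1.13 and 1.05 CPM in wild type. Cd3e, a subunit of the T cell receptor complex, was at 0.0449 CPM or less in every library and was too low to be tested. Mast cell and basophil markers summed to 34.8 and 29.7 CPM in NICcA and to between 8.09 and 21.3 CPM in wild type. Of the 4 that were tested, 3 had both NICcA values above all wild type values, beside the same 18.3% of all genes. Cpa3, a mast cell protease, was at 22.7 and 15.8 CPM in NICcA and at 10.3, 5.40 and 2.31 CPM in wild type (edgeR adjusted p = 0.32, DESeq2 adjusted p = 0.049). It was the 1 marker of this list that DESeq2 called, where DESeq2 called 2.05% of all genes as higher.

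Dendritic cell markers summed to 1012 and 658 CPM in NICcA and to 717 to 901 CPM in wild type. Most of that sum was Itgax, at 805 and 551 CPM in NICcA and at 661, 808 and 848 CPM in wild type (log2 fold change -0.19). Of the 7, all tested, 5 had both NICcA values above all wild type values, where 18.3% of all genes did. Among them was Zbtb46, a dendritic cell transcription factor, at 10.7 and 7.61 CPM in NICcA and at 5.33, 4.82 and 2.67 CPM in wild type. Dpp4, also among them, was the 1 marker of this list that DESeq2 called, where it called 2.05% of all genes as higher. It was at 12.2 and 9.01 CPM in NICcA and at 4.30, 2.42 and 0.683 CPM in wild type (edgeR adjusted p = 0.30, DESeq2 adjusted p = 0.032). Neutrophil markers summed to 594 and 737 CPM in NICcA and to 660 to 1010 CPM in wild type. Most of that sum was Mmp8, a collagenase, at 484 and 611 CPM in NICcA and at 746, 606 and 907 CPM in wild type. The other 7 of the 8 tested neutrophil markers had log2 fold changes above 0. For 2 of the 8, Ngp and Ltf, both NICcA values lay above all wild type values, where 18.3% of all genes did. Ngp, a neutrophil granule protein, was at 27.6 and 31.8 CPM in NICcA and at 17.1, 12.5 and 20.7 CPM in wild type (edgeR adjusted p = 0.28, DESeq2 adjusted p = 0.035). Erythroid markers summed to 0.643 and 0.305 CPM in NICcA and to 0.164 to 0.304 CPM in wild type. Fibroblast and stromal markers summed to 0.643 and 0.513 CPM in NICcA and to 17.1, 0.696 and 0.622 CPM in wild type, where replicate 1 stood apart. The part of these cells in the Bcl2 difference was not tested.

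Bcl2a1b was high in NICcA replicate 2 alone. It was at 195 and 89.6 CPM in NICcA and at 93.6, 100 and 87.4 CPM in wild type. NICcA replicate 3 lay within the wild type range. The log2 fold change was 0.60 (SE 0.31, 95% interval -0.14 to 1.35, edgeR adjusted p = 0.39), and it was -0.067 without NICcA replicate 2.

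The other A1 copies had the same library on top. Bcl2a1d was at 141 and 67.9 CPM in NICcA and at 51.8, 64.0 and 30.6 CPM in wild type (log2 fold change 1.10, SE 0.39, edgeR adjusted p = 0.33). Bcl2a1a was at 70.3 and 38.2 CPM in NICcA and at 32.2, 44.3 and 23.3 CPM in wild type (log2 fold change 0.71, SE 0.34, edgeR adjusted p = 0.38). NICcA replicate 3 overlapped wild type for Bcl2a1a and lay just above wild type replicate 2 for Bcl2a1d. Bcl2a1c had counts of 7 and 2 in NICcA and of 0, 1 and 0 in wild type, too few for a fold change, where 3 counts correspond to 0.0409 to 0.0521 CPM in the wild type libraries. Summing Bcl2a1a, Bcl2a1b and Bcl2a1d gave 407 and 196 CPM in NICcA and 178, 209 and 141 CPM in wild type (log2 fold change 0.78, SE 0.32, edgeR adjusted p = 0.35). The sum removes the split of reads among the 3 copies only if each shared read was counted once, which is not stated. Gm29094 is not in it.

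NF-kB target genes, like the A1 copies, were on balance highest in NICcA replicate 2. The median of 11 such genes, relative to the wild type mean on the log2 scale, was 1.10 in NICcA replicate 2 and 0.19 in NICcA replicate 3, and -0.11, 0.22 and -0.040 in wild type. On the same scale Bcl2a1b was at 1.06 and -0.062 in NICcA and Bcl2 at 1.37 and 0.97. Both the list and the A1 copies were high in NICcA replicate 2, and Bcl2 was high in both NICcA libraries. Il1b, which encodes a cytokine and had the smallest p of this list, was at 501 and 76.4 CPM in NICcA and at 16.6, 14.3 and 14.8 CPM in wild type. Nfkbie, an inhibitor of NF-kB, was at 56.1 and 26.6 CPM in NICcA and at 18.6, 22.1 and 19.8 CPM in wild type. Of the 11 genes edgeR called 0 (0.03% of all genes tested), 4 had an unadjusted p below 0.05 (14.5% of all genes), and DESeq2 called 2 as higher (2.05% of all genes). The part of NF-kB or interferon signals in the A1 values was not tested.

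**Figure D3:**
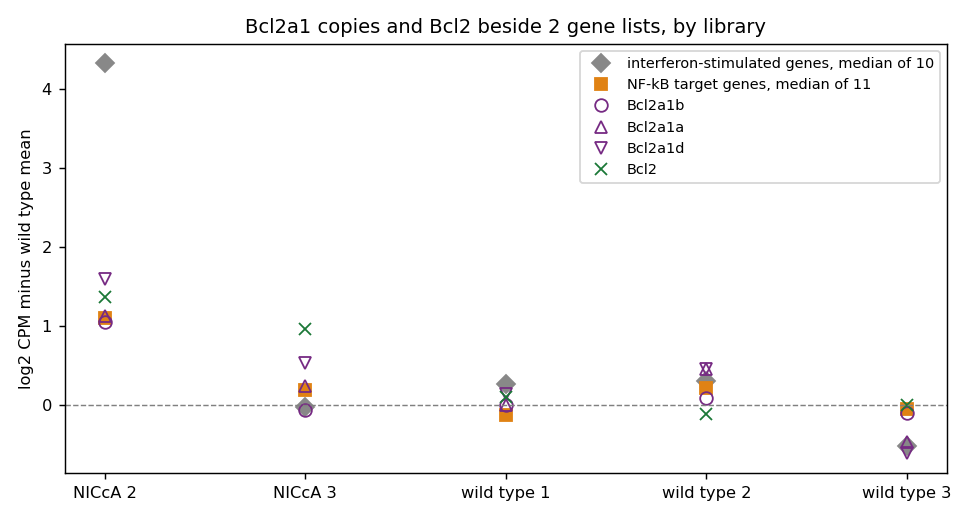
Log2 CPM minus the wild type mean in each library for 3 A1 copies, Bcl2 and the medians of 2 gene lists. In NICcA replicate 2 the A1 copies lay between 1.06 and 1.60 and the interferon-stimulated genes at 4.32, while in NICcA replicate 3 Bcl2 was at 0.97 and Bcl2a1b at -0.062.

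The promoters of the A1 copies were searched for the core motif of Rbpj, the DNA-binding partner of Notch, written TGGGAA, and for the NF-kB consensus, on both strands from 250 bases before to 50 bases after each start site (RefSeq, GRCm38.p6). The same TGGGAA match, read on the opposite strand as TTCCCA, occurs in Bcl2a1a, Bcl2a1b and Bcl2a1d and is shown with its flanks, the match in capitals, because the copies share it. It starts 223 bases before the start site of Bcl2a1b (shown bases chr9:89199030-89199075, plus strand), 179 bases before that of Bcl2a1a (chr9:88956721-88956766, plus strand) and 173 bases before that of Bcl2a1d (chr9:88731998-88732043, minus strand).
Bcl2a1b: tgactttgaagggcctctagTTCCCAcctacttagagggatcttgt
Bcl2a1a: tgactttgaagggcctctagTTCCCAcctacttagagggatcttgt
Bcl2a1d: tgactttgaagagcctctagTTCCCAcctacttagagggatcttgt
The window of Bcl2a1c held no TGGGAA, and none of the windows of these 4 A1 copies held the NF-kB consensus. Of all 32851 promoter windows 25.6% hold TGGGAA on either strand and 8.46% hold the NF-kB consensus. Promoter windows were found for 9 of the 10 members, 14 windows in all, of which 2 held TGGGAA (Bcl2a1b and Bax) and 2 held the NF-kB consensus (Bcl2l1 and Bbc3). The window of Bcl2 held neither.

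Bcl2l1, the survival protein Bcl-xL, was at 75.0 and 53.2 CPM in NICcA and at 43.9, 56.6 and 49.2 CPM in wild type. NICcA replicate 2 was the highest library and NICcA replicate 3 lay within the wild type range. The log2 fold change was 0.36 (SE 0.18, 95% interval -0.084 to 0.81, edgeR adjusted p = 0.39) and was 0.090 without NICcA replicate 2.

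Mcl1 was at 827 and 935 CPM in NICcA and at 990, 1148 and 1087 CPM in wild type. Both NICcA libraries were below all wild type libraries, by a small margin between NICcA replicate 3 and wild type replicate 1. The log2 fold change was -0.29 (SE 0.13, 95% interval -0.61 to 0.041), which did not pass (edgeR adjusted p = 0.37). Among genes that act on the turnover of the Mcl1 protein, Fbxw7, a ubiquitin ligase component, was at 21.0 and 22.6 CPM in NICcA and at 28.9, 33.6 and 30.3 CPM in wild type (log2 fold change -0.51, SE 0.12, edgeR adjusted p = 0.27, DESeq2 adjusted p = 0.013). Usp9x, which removes ubiquitin from Mcl1, had a log2 fold change of -0.31 (SE 0.16, edgeR adjusted p = 0.39).

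The effectors that form the mitochondrial pore overlapped between the groups in CPM. Bax was at 50.1 and 46.9 CPM in NICcA and at 42.2, 55.2 and 40.6 CPM in wild type (log2 fold change 0.076, SE 0.16, 95% interval -0.31 to 0.46, edgeR adjusted p = 0.83). Bak1 was at 59.7 and 44.7 CPM in NICcA and at 43.5, 45.5 and 44.1 CPM in wild type, so that NICcA replicate 2 stood above 4 libraries that lay together. Its log2 fold change was 0.23 (SE 0.14, 95% interval -0.11 to 0.58, edgeR adjusted p = 0.46), and 0.0082 without NICcA replicate 2. In the authors' RPKM the groups did not overlap for Bak1, with 25.4 and 19.1 in NICcA and 17.6, 17.6 and 17.1 in wild type. The share of all genes that separate in RPKM was not computed.

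Of the BH3-only genes, Bcl2l11, which links loss of growth factors to death in blood cells, was at 58.2 and 70.2 CPM in NICcA and at 80.3, 73.4 and 90.9 CPM in wild type. Both NICcA libraries were below all wild type libraries. The log2 fold change was -0.34 (SE 0.14, 95% interval -0.68 to -0.0046, unadjusted p = 0.048), and it did not pass after adjustment (edgeR adjusted p = 0.34). In the authors' RPKM the groups overlapped, with 9.83 and 11.9 in NICcA and 12.9, 11.3 and 14.0 in wild type. Its other 2 transcripts, whose counts share reads with it, had log2 fold changes of -0.35 and -0.35. Foxo3, a transcription factor known to act on Bcl2l11 and Bbc3, had a log2 fold change of -0.093 (SE 0.15, edgeR adjusted p = 0.78), and Foxo4 one of -0.16 (SE 0.22, edgeR adjusted p = 0.74).

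Bcl2l11 and Bcl2 lay on opposite sides of wild type in CPM. The ratio of their RPKM was 4.65 and 7.40 in NICcA and 15.4, 16.4 and 18.7 in wild type. Bcl2l11 overlapped between the groups in RPKM, so this separation follows from the higher Bcl2 and is no separate result. The same ratio of Bcl2l11 to Mcl1 was 0.0487 and 0.0520 in NICcA and 0.0562, 0.0443 and 0.0579 in wild type, with overlapping groups. That of Bcl2a1b to Mcl1 was 1.08 and 0.437 in NICcA and 0.432, 0.399 and 0.367 in wild type. That of Bcl2l1 to Mcl1 was 0.133 and 0.0837 in NICcA and 0.0653, 0.0725 and 0.0665 in wild type. Both of these ratios were higher in the NICcA libraries without overlap. For Bcl2a1b the margin was narrow, from 0.432 in wild type replicate 1 to 0.437 in NICcA replicate 3. In RPKM Mcl1 itself was lower and Bcl2l1 itself higher in both NICcA libraries, while Bcl2a1b overlapped. Neither ratio is thus read as a separate result. The share of other gene pairs that separate was not computed.

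Pmaip1, which binds Mcl1 and A1 and is induced by p53 and by interferon signals, was at 37.4 and 38.5 CPM in NICcA and at 33.5, 19.2 and 12.7 CPM in wild type. The NICcA libraries lay close together while the wild type libraries spread over a wide range, and wild type replicate 1 came near the NICcA level. The log2 fold change was 0.80 (SE 0.38, 95% interval -0.12 to 1.72, edgeR adjusted p = 0.37), and 1.26 without wild type replicate 1 (edgeR adjusted p = 0.10). On the log2 scale from the wild type mean, Pmaip1 was at 0.89 and 0.93 in NICcA, where the median of the interferon-stimulated genes was 4.32 and -0.026. The part of p53 or interferon signals in the Pmaip1 values was not tested.

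Bid, which is cleaved by caspase-8 and connects death receptors to mitochondria, was at 23.3 and 22.3 CPM in NICcA and at 19.9, 25.0 and 23.1 CPM in wild type (log2 fold change 0.0086, SE 0.13, 95% interval -0.32 to 0.33, edgeR adjusted p = 0.98). Bbc3, a p53 target that binds all survival proteins, was at 15.9 and 19.1 CPM in NICcA and at 16.8, 23.3 and 13.8 CPM in wild type (log2 fold change -0.036, SE 0.24, 95% interval -0.61 to 0.54, edgeR adjusted p = 0.95). For both genes the NICcA values lay inside the wild type range. The signs of Bid, Bbc3 and Bax changed with single libraries or other processing.

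**Figure D4:**
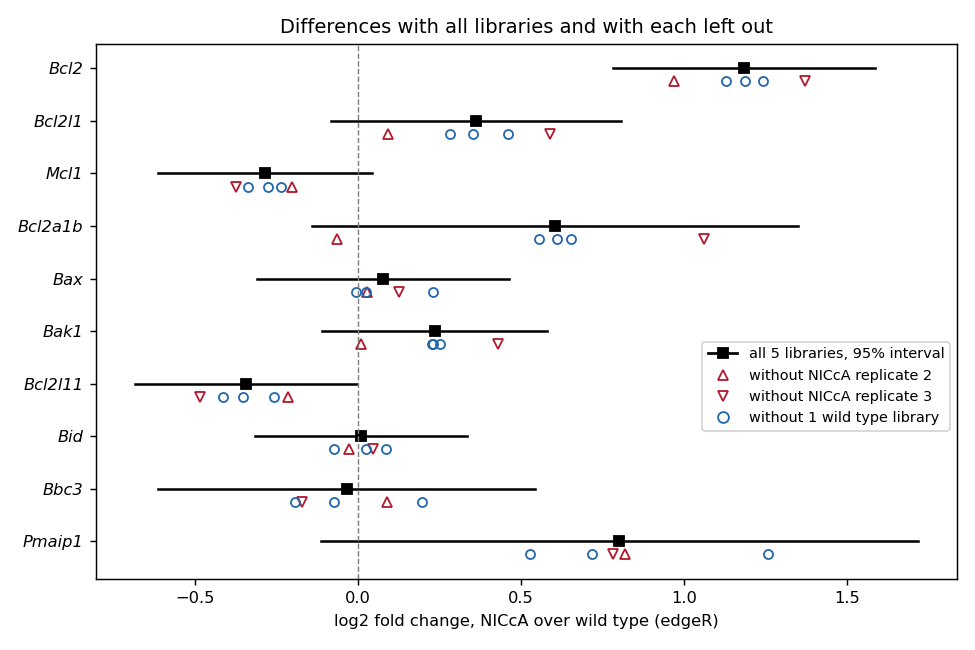
Log2 fold change of NICcA over wild type for each member (square) with its 95% interval, and below it the value without each library in turn (red triangles for NICcA, blue circles for wild type). Bcl2 lay above 0 throughout, between 0.97 and 1.37, while Bcl2a1b, Bcl2l1 and Bak1 came near 0 without NICcA replicate 2.

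The rest of the death pathway was described with lists of genes. Over 8 such lists, 58 of 62 genes were tested, 0 passed edgeR's threshold, 6 had an unadjusted p below 0.05, and DESeq2 called 1 higher (Sesn2) and 2 lower (Bnip3l and Fbxw7). Over all genes tested these shares were 0.03%, 14.5%, 2.05% and 1.9%, so the counts of calls in the lists are near the background. Their median log2 fold change was 0.074, with 31 above 0 and 27 below. The groups did not overlap for 17 of the 58, of which 8 were higher and 9 lower in NICcA, where 18.3% and 18.5% of all genes were.

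Among 14 further Bcl2 family genes, 11 were tested, 5 were above 0 and 6 below (median log2 fold change -0.014). Bnip3l, a BH3 protein of the mitochondrial surface known for mitophagy, was at 84.6 and 102 CPM in NICcA and at 142, 141 and 173 CPM in wild type. Both NICcA libraries were below all wild type libraries (log2 fold change -0.71, SE 0.15, edgeR adjusted p = 0.27, DESeq2 adjusted p = 0.0043). Bok, a Bax-like effector, was at 0.868 and 1.28 CPM in NICcA and at 2.98, 2.88 and 0.971 CPM in wild type (log2 fold change -1.09, SE 0.53, edgeR adjusted p = 0.38).

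Downstream of the mitochondrial pore, of 11 apoptosome and caspase genes, 6 were above 0 and 5 below (median log2 fold change 0.043). Apaf1, the scaffold that activates caspase-9, was at 84.9 and 84.3 CPM in NICcA and at 97.3, 97.6 and 102 CPM in wild type (log2 fold change -0.23, SE 0.092, edgeR adjusted p = 0.34). Diablo, which relieves caspases of inhibition, had a log2 fold change of 0.25 (SE 0.11, edgeR adjusted p = 0.35). Of the 3 VDAC channel genes, Vdac2, which holds Bak1 at the mitochondrial membrane, had a log2 fold change of -0.24 (SE 0.16, edgeR adjusted p = 0.49), and Vdac1 one of 0.10 (SE 0.090, edgeR adjusted p = 0.61).

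Of 5 inhibitor of apoptosis genes, 2 were above 0 and 3 below. Birc5 (survivin), which is mainly a cell division protein, was at 25.0 and 26.0 CPM in NICcA and at 20.01, 13.1 and 6.27 CPM in wild type (log2 fold change 0.96, SE 0.43, edgeR adjusted p = 0.36). Xiap, a direct caspase inhibitor, had a log2 fold change of -0.39 (SE 0.18, edgeR adjusted p = 0.36). Of 12 tested death receptor and necroptosis genes, 9 were above 0 and 3 below. Tnf was at 93.6 and 15.2 CPM in NICcA and at 10.5, 17.0 and 8.15 CPM in wild type, again with NICcA replicate 2 alone above the others (log2 fold change 2.19, SE 0.71, edgeR adjusted p = 0.31). Ripk1, a kinase of TNF receptor signalling, had a log2 fold change of -0.23 (SE 0.10, edgeR adjusted p = 0.35).

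Of 10 p53 pathway genes, 7 were above 0 and 3 below (median log2 fold change 0.13). Sesn2, a stress-induced inhibitor of mTORC1, was at 27.7 and 22.5 CPM in NICcA and at 15.04, 15.4 and 9.30 CPM in wild type (log2 fold change 0.92, SE 0.24, edgeR adjusted p = 0.28, DESeq2 adjusted p = 0.027). Cdkn1a (p21), an inhibitor of the cell cycle, was at 104 and 69.2 CPM in NICcA and at 57.7, 47.4 and 24.8 CPM in wild type (log2 fold change 1.005, SE 0.36, edgeR adjusted p = 0.33). Sesn2 and Cdkn1a had the smallest p of the list. Of the 10 genes, 3 (Sesn2, Cdkn1a and Zmat3) had both NICcA values above all wild type values and 0 had both below. Of all genes 18.3% were above and 18.5% below in this way. Pmaip1 also lay above, while Bbc3 and Bax overlapped.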

How the data were processed

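Raw read counts and RPKM (reads per kilobase of transcript, scaled for depth), so named per the file headers, were deposited for 27457 RefSeq transcript rows. A further RPKM table held the same values for the 13 rows of the members. Bowtie 0.12.2 and the build mm8 appear, without a role, per the submitters' processing notes. The counter, its strand setting and its handling of shared reads are not stated in these sources. The test was edgeR 4.0.16 under R 4.3.3, run on counts (TMM, filterByExpr, glmQLFit, glmQLFTest, genotype as the only term) with Benjamini-Hochberg adjustment over 18267 rows, of which 13341 are the top row of a gene. The common biological coefficient of variation was 22.5%. CPM are on TMM-scaled totals, SEs are the absolute log2 fold change over the square root of F, and 95% intervals use edgeR's degrees of freedom. The edgeR script was run on simulated counts with set fold changes, as a check of the code only. Those counts held no outlying library such as NICcA replicate 2, so the run does not vouch for the calls here. Alternatives were RLE and upper-quartile factors, other filters, DESeq2 1.42.0, limma 3.58.1 (voom, and log2(RPKM + 1) or log2(RPKM + 0.1)), a replicate term and each library left out. The members and gene lists were chosen with earlier results of these data known. Named outside the members were the other A1 copies, Hes1 and Notch1, the 3 genes most like Bcl2 and, per list, called genes or, failing any, 2 genes by smallest p. Lists of cell markers and interferon-stimulated genes are the exception. For them, summed levels, medians, markers that bear on Bcl2 or lead a sum, and markers called by DESeq2 are given, chosen after their values were seen. Intervals and floors cover counting and library spread only.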

Additional observations from a re-analysis of the deposited data

How the results depend on the processing

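Of 164 values of the members' log2 fold changes under alternatives, 153 kept their direction and side of the threshold, 10 changed sign and 1 passed the threshold, Bcl2 with DESeq2 (log2 fold change 1.18). Across its 17 alternatives the adjusted p of Bcl2 ranged from 4.0e-06 to 0.90. The sign changes were those of Bbc3 (0.091 and 0.11 on log2(RPKM + 1) and log2(RPKM + 0.1), 0.091 without the RPKM filter, and -0.19 to 0.20 with each library left out), Bid (-0.077 with the replicate block and -0.073 to 0.086 with each library left out), Bcl2a1b (-0.067 to 1.06 with each library left out, the lowest without NICcA replicate 2) and Bax (-0.0060 to 0.23 with each library left out). The cause was not tested. Members called numbered 0 in the main test and each alternative except DESeq2, which called 1. Members of the death pathway lists called numbered 0 throughout except for 3 with DESeq2. Genes called in all numbered 4 with edgeR, 11 without a low-count filter, 527 with DESeq2, 2 with voom, 2 on log2(RPKM + 1), 2 on log2(RPKM + 0.1) and 0 with the replicate block. With each library left out they ranged from 0 (without NICcA replicate 2, and without wild type replicate 2) to 44 (without NICcA replicate 3). The labels do not say that a shared number marks a shared animal or day. Deviations from the group mean correlated across genes at 0.21 between the libraries numbered 2 and at 0.17 between those numbered 3. With only 2 NICcA libraries, the deviations of each are the exact opposite of the other's. NICcA replicate 3 with wild type replicate 2 was thus at -0.21, and NICcA replicate 2 with wild type replicate 3 at -0.17. These values are not independent and cannot decide whether the numbers mark pairs. The block gave Bcl2 1.23 and Pmaip1 1.28 (edgeR adjusted p = 0.099 each). Without 1 NICcA library, the lone NICcA library is assumed to vary like wild type. The intervals of the members rest on 2 NICcA and 3 wild type libraries, and the effect of depth on them was not tested.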
